A study of Mus musculus with 57 samples.

Results

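A set of T-box and SOX genes of the mouse was read for 3 histone marks in brain cortex and gastrocnemius muscle. The set holds 30 named autosomal genes, 13 T-box and 17 SOX, out of 24963 autosomal genes with a curated RefSeq transcription start site (TSS) on mm10. The genes were listed by family name, with earlier results of these data known. Other T-box and SOX genes, autosomal ones included, were not analysed here, so a count for a family covers only the listed genes. ChIP-seq of H3K4me3, H3K27ac and H3K27me3 gave 57 libraries, with 9 cortex and 10 gastrocnemius libraries for each mark. All tissues came from PSAPP mice, an Alzheimer model line that carries a mutant human presenilin transgene and a mutant mouse and human chimera of the amyloid precursor, killed at 13 months of age. Before that they were singly housed from 6 months on a modified AIN-93 diet at a set food intake. No mouse without the transgenes is among these groups, so each comparison is one of tissues within the PSAPP line. Both sexes were pooled in each tissue, because the labels do not give the sex of a library. The deposited names give 10 mice, of which 9 supplied both tissues.

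T-box proteins bind DNA through the T domain, and SOX proteins bend DNA through an HMG box related to that of Sry. Both families set cell identity in the embryo, T-box genes mainly in mesoderm, heart and limb, and SOX genes in the nervous system, glia, cartilage and endothelium. H3K4me3 marks gene starts open to transcription, H3K27ac marks active promoters and enhancers, and H3K27me3 is laid down by Polycomb complexes over silenced developmental genes, where it may share a promoter with H3K4me3.

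The reads in autosomal peaks ranged from 9.03 to 18.6 M (M, 1000000 reads) for H3K4me3, from 3.90 to 27.04 M for H3K27ac and from 2.99 to 18.2 M for H3K27me3. The lowest H3K27ac library was cortex replicate 9, and every other H3K27ac library had at least 14279570 reads. This library had H3K27ac peaks at 16 of the 30 genes, against 21 to 23 in the other cortex libraries. Whether its depth lowered its calls was not tested. Most cell type markers went with the labelled tissues. All 8 neuronal markers were higher in cortex in H3K4me3 and in H3K27ac, and of 10 skeletal muscle fibre markers 9 were higher in gastrocnemius in H3K4me3 and 8 in H3K27ac. In H3K4me3 the 5 oligodendrocyte markers and 3 of 4 microglial markers were higher in cortex, and the 2 satellite cell, 3 fibro-adipogenic and 4 endothelial markers were higher in gastrocnemius. Of 4 astrocyte markers 3 were higher in cortex in H3K4me3, while Aqp4 was higher in gastrocnemius in H3K4me3 and H3K27ac (FDR 0.0359 and 0.0250). The fibre marker Actn3 was higher in cortex in H3K4me3 (FDR 0.00796). Of the libraries, 2 of 9 in cortex and 4 of 10 in gastrocnemius carried a second identifier, the letter S and a number, in their deposited name. In H3K27me3 these 4 gastrocnemius libraries stood apart, with 147 to 232 reads per M reads in autosomal peaks (CPM) summed over the 30 genes, against 241 to 345 in the other 6. Calls of the H3K27me3 read test are therefore also given without all libraries that carry the S number. The same 4 gastrocnemius libraries also held the most H3K27me3 reads in autosomal peaks, at least 7295429 against at most 5860106 in the other 6. The S number can thus not be told apart from depth there. Leaving out these libraries may also shift the balance of the sexes, which the labels do not give. The gastrocnemius names also describe a read filter that the cortex names do not, and a difference in processing, if there was one, cannot be told apart from the tissue.

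The reads of each peak were spread evenly over its length. Each gene was given the share no more than 1 kb from any of its TSSs, expressed as CPM. For a peak wider than the window the value is thus the mean density of the whole peak. It can differ between tissues through the width of the peak. A library without a called peak has 0 CPM, although reads below the peak threshold may be present there. The size of a difference then depends on this 0, and where this moved a printed difference by over 1.5 times, its value with uncalled windows given the lowest read density is added. In whole tissue, fewer cells with a mark and less of the mark per cell cannot be told apart, and marks over the same TSS may come from different cells. The windows of Tbx2, Tbx3, Sox6, Sox8 and Sox21 also hold a TSS of a neighbour (2610027K06Rik, Tbx3os1, Sox6os, Cerox1 and Gm4675), so their reads cannot be assigned to either gene alone.

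Most of the 30 genes carried H3K4me3 and H3K27me3 over the same TSS windows. A peak of both marks in most libraries (at least 5 of 9 in cortex or 6 of 10 in gastrocnemius) was found for 20 of 30 genes in cortex and for 19 in gastrocnemius, while 3001 and 3118 of all 24963 autosomal genes had this. All 3 marks were present at 15 genes in cortex and 16 in gastrocnemius, against 10.6% and 9.34% of all genes, and 10 genes had all 3 in both tissues: Tbx1, Tbx3, Tbx15, Tbx18, Sox6, Sox7, Sox9, Sox17, Sox18 and Sox21. No gene of the set lacked all 3 marks in either tissue, whereas 22.4% of all genes did in cortex and 24.3% in gastrocnemius. For a single mark, H3K27me3 was called at 24 of the 30 genes in each tissue (22.8% and 23.2% of all genes), H3K4me3 at 26 and 24 (61.4% and 60.2%), and H3K27ac at 21 and 22 (66.5% and 62.2%).

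The combination of marks was the same in both tissues for 17 genes and differed for 13. Tbx5, Tbx19 and Sox14 carried H3K27me3 without the other marks in both tissues. Tbx6, Sox4, Sox12 and Sox15 carried H3K4me3 and H3K27ac without H3K27me3 in both. The 13 genes that differed were Tbx2, Tbx4, Tbx10, Tbx20, Tbx21 and Eomes of the T-box family and Sox1, Sox2, Sox5, Sox8, Sox11, Sox13 and Sox30 of the SOX family.

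**Figure D1:**
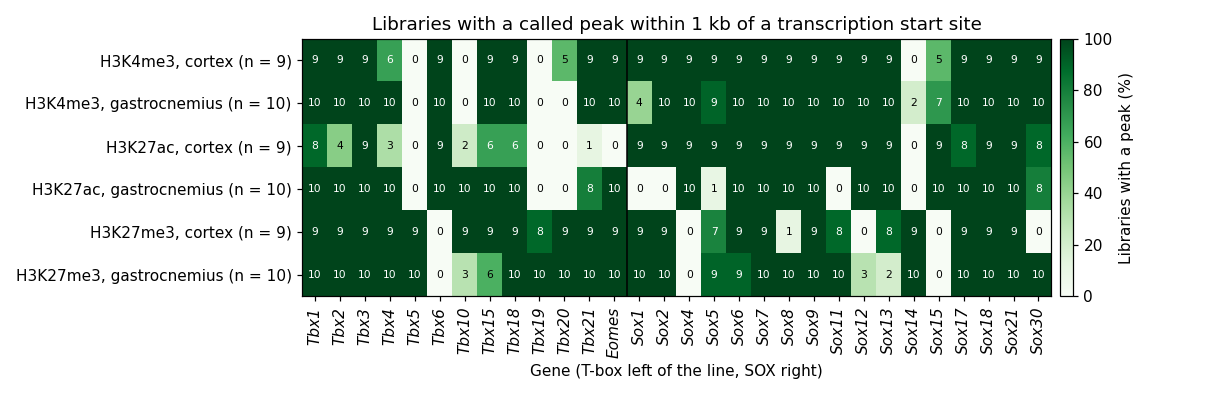
Number of libraries with a called peak within 1 kb of a TSS for each gene (columns) in each mark and tissue (rows, 9 cortex or 10 gastrocnemius libraries); darker green is a higher percentage of libraries. H3K27ac at Sox1, Sox2 and Sox11 was called in 9 cortex and 0 gastrocnemius libraries, while Eomes had the opposite calls.

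The 250 bases before the TSS (RefSeq, mm10) are shown for 6 genes whose marks differed between the tissues, so that the CpG content of the marked DNA can be seen. The promoter table held 28 promoters of 22 of the 30 genes. Each is written 5′ to 3′ on the strand of the gene, with every CG dinucleotide in capitals. Sox2 (chr3:34649745-34649994, plus strand) and Sox11 (chr12:27342719-27342968, minus strand) had H3K27ac in cortex and none called in gastrocnemius. Sox8 (chr17:25570687-25570936, minus strand) and Sox30 (chr11:45980060-45980309, plus strand) had H3K27me3 in every gastrocnemius library. Tbx20 (chr9:24774304-24774553, minus strand) had H3K4me3 in some cortex libraries, and Tbx10 (chr19:3992502-3992751, plus strand) had no H3K4me3 peak in any library.
Sox2: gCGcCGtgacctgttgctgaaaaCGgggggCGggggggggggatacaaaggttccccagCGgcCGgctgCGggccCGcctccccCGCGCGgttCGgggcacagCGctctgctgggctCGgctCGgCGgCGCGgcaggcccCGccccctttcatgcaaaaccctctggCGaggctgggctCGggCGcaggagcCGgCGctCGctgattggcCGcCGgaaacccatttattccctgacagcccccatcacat
Sox11: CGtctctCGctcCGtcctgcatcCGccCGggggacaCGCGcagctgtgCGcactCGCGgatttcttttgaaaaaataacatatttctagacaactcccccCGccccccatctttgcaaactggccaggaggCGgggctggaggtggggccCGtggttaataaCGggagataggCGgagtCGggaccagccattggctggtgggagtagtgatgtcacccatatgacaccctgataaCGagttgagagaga
Sox8: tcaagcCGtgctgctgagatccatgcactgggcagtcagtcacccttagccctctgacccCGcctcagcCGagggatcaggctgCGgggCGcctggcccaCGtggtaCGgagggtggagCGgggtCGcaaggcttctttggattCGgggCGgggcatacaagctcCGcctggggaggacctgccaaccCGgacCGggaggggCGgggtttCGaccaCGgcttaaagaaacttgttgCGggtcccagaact
Sox30: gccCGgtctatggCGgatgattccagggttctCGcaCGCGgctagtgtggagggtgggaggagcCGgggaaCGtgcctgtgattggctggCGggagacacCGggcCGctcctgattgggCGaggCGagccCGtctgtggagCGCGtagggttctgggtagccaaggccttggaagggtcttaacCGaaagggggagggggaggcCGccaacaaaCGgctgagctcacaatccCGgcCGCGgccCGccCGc
Tbx20: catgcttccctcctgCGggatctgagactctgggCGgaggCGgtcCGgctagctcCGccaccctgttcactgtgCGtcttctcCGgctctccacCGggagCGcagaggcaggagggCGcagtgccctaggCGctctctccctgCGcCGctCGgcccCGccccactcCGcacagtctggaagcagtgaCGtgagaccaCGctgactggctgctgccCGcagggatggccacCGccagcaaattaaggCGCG
Tbx10: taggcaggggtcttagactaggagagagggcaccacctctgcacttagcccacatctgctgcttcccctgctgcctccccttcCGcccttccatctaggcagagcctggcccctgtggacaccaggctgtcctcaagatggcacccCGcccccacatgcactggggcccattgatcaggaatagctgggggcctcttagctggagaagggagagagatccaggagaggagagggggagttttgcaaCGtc

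The printed stretch held 27 CG dinucleotides in Sox2, 23 in Sox30, 22 in Tbx20, 18 in Sox8, 17 in Sox11 and 3 in Tbx10. Over the 28 promoters the median was 10.5, against 9 for 22233 promoters of autosomal genes. The 19 of these TSSs with an H3K4me3 peak in at least 10 of 19 libraries had a median of 16 CG dinucleotides, and the 9 with fewer a median of 3. These 9 came from 6 genes. They included internal TSSs of Sox6, with 1 or 2 CG dinucleotides, and of Sox5, with 3. Both genes had H3K4me3 at upstream TSSs, and Sox6 weighs more in the lower median by its several TSSs. Tbx20 with 22 and Sox14 with 23 went against the order of the medians, since their H3K4me3 was called in 5 and 2 of 19 libraries. So did Sox15 with 5 and Tbx4 and Tbx6 with 6, whose H3K4me3 was called in 12, 16 and 19 libraries, while Tbx19 with 7 had none. The SOX core motif ACAAT, searched on both strands, was present in 25% of the promoters of the set and in 24.75% of all promoters. The T-box core motif TCACACCT occurred in none of the 28 and in 1.03% of all promoters.

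In H3K4me3, T-box genes were mainly higher in gastrocnemius and SOX genes went both ways. With a peak in at least 3 of 19 libraries, 26 of the 30 genes were tested by edgeR's quasi-likelihood test at an FDR under 0.1, with Benjamini-Hochberg adjustment over all genes tested. Of these, 8 were higher in cortex, where 59.6% of all genes tested were called, and 14 were higher in gastrocnemius, where 16.1% were called. Among 10 T-box genes tested, 1 was higher in cortex and 9 in gastrocnemius, and among 16 SOX genes 7 and 5. The median log2 difference (cortex minus gastrocnemius) was -0.28 for the set and 0.33 for all genes tested. With TMM factors, under which the median over all genes tested was 0.04, the split was 7 and 17 against 32.6% and 27.3% of all genes, with Sox4, Sox9 and Sox21 now higher in gastrocnemius and Sox30 no longer called. The SOX genes were then 6 higher in cortex and 8 in gastrocnemius, and the T-box genes stayed at 1 and 9. The CPM values of the tissues did not overlap for 6 genes higher in cortex (18.2% of all genes tested) and 9 higher in gastrocnemius (6.66%). Tbx5, Tbx10 and Tbx19 had no H3K4me3 peak in any library, and Sox14 had one in 2 gastrocnemius libraries, so these 4 were not tested.

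**Figure D2:**
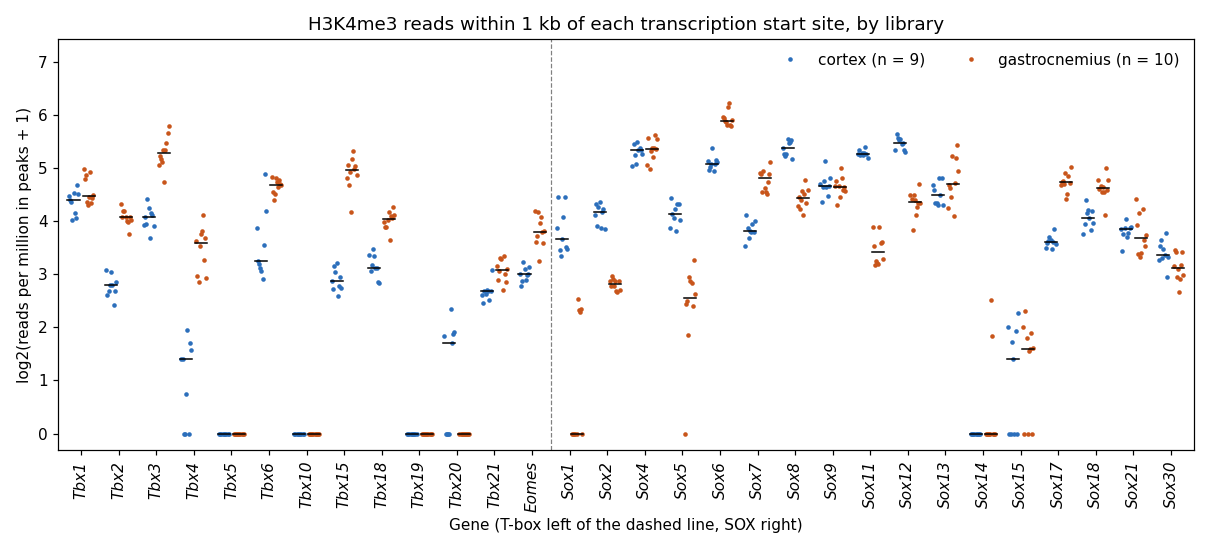
H3K4me3 at each gene as log2(CPM + 1), 1 point per library, with blue points for 9 cortex and orange points for 10 gastrocnemius libraries and a black line at the median. Tbx2, Tbx3, Tbx15, Sox17 and Sox7 lie higher in gastrocnemius without overlap, and Sox2, Sox8, Sox11 and Sox12 higher in cortex.

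In H3K27ac the same contrast between the families was seen in the counts. Of 26 genes tested, 9 were higher in cortex (49.8% of all genes tested) and 13 in gastrocnemius (13.2%). No T-box gene of 10 tested was higher in cortex and 8 were higher in gastrocnemius, while of 16 SOX genes 9 were higher in cortex and 5 in gastrocnemius. The median log2 difference was -0.36 for the set and 0.31 for all genes tested, and with TMM factors the counts were 9 and 15 (32.4% and 24.4% of all genes), with Tbx1 and Sox15 also called higher in gastrocnemius. Values did not overlap for 7 genes higher in cortex (14.8%) and 6 higher in gastrocnemius (4.52%). Tbx5, Tbx19, Tbx20 and Sox14 had no H3K27ac peak in any library.

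**Figure D3:**
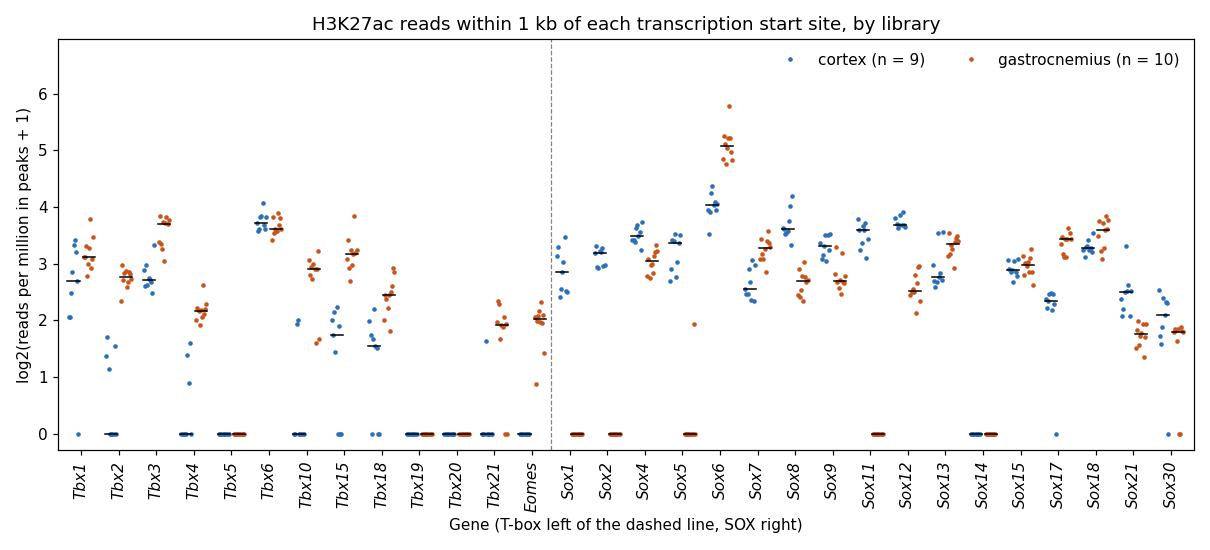
H3K27ac at each gene as log2(CPM + 1), 1 point per library, with blue points for 9 cortex and orange points for 10 gastrocnemius libraries and a black line at the median. Sox1, Sox2 and Sox11 lie at 0 in all gastrocnemius libraries and Eomes at 0 in all cortex libraries.

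In H3K27me3, 9 of 12 T-box genes tested were higher in cortex, and 5 of these were called without the libraries that carry an S number. Of 27 genes tested, 13 were higher in cortex (19.5% of all genes tested), 3 in gastrocnemius (25.3%) and 11 were not called. No T-box gene was higher in gastrocnemius, and Tbx19, Tbx21 and Eomes were not called. Among 15 SOX genes 4 were higher in cortex and 3 in gastrocnemius. The median log2 difference was 0.36 for the set and 0.01 for all genes tested. Without the libraries with an S number, 7 genes were called higher in cortex (18.4%), 5 of them T-box genes, and 3 in gastrocnemius (26.1%). With TMM factors the counts were 14 and 4 (21.9% and 27.2%), since Tbx21 and Sox18 were also called higher in cortex and Sox11 higher in gastrocnemius, and Tbx10 was no longer called (FDR 0.101). The CPM values overlapped for most genes, and did not for 2 higher in cortex (4.86%) and 1 higher in gastrocnemius (5.35%). Tbx6, Sox4 and Sox15 had no H3K27me3 peak in any library.

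**Figure D4:**
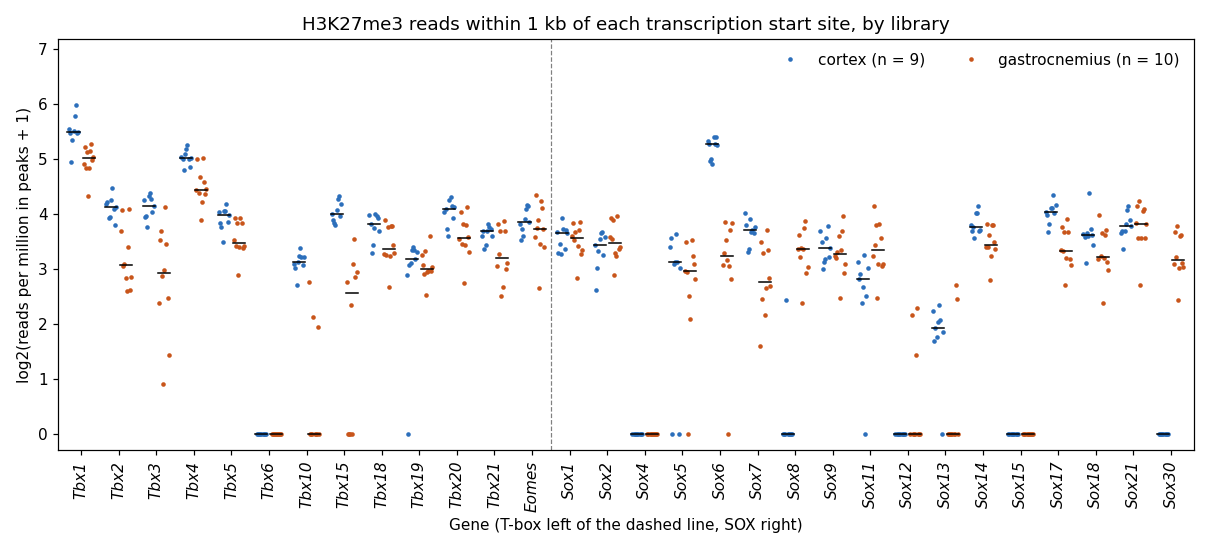
H3K27me3 at each gene as log2(CPM + 1), 1 point per library, with blue points for 9 cortex and orange points for 10 gastrocnemius libraries and a black line at the median. Sox6 and Tbx15 lie higher in cortex without overlap, and Sox30 lies at 0 in all cortex libraries and above 0 in all gastrocnemius libraries.

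The 3 marks were read together for the 22 genes tested in each. H3K4me3 and H3K27ac were higher in gastrocnemius and H3K27me3 higher in cortex at 8 of them (Tbx2, Tbx3, Tbx4, Tbx15, Tbx18, Sox6, Sox7 and Sox17), a pattern held by 11.2% of the 5372 genes tested in all 3 marks. Without the libraries with an S number, Sox7 lost its H3K27me3 call (FDR 0.119) and Tbx18 its H3K27me3 and H3K27ac calls (FDR 0.565 and 0.182), while the other 6 kept all 3 calls. The opposite pattern was held by 2 genes, Sox8 and Sox12, and by 28.0% of all genes. The H3K27me3 call of Sox12 rested on 3 of 10 gastrocnemius libraries. It was lost with the mouse as a replicate block (FDR 0.241), with DESeq2, with limma and with uncalled windows given the lowest read density of the library (FDR 0.919).

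The peak calls were also compared on their own by Fisher's exact test, two-sided, adjusted over all genes with a peak in some but not all libraries. Of the 30 genes, 6 were tested this way in H3K4me3, 14 in H3K27ac and 10 in H3K27me3. H3K4me3 was called more often in cortex at Sox1 and Tbx20 (31.4% of all genes tested this way were called in that direction) and at no gene of the set more often in gastrocnemius (23.1%). H3K27ac was called more often in cortex at Sox1, Sox2, Sox5 and Sox11 (34.6%) and more often in gastrocnemius at Tbx2, Tbx4, Tbx10, Tbx21 and Eomes (16.8%). The H3K27ac call of Tbx2 and the H3K4me3 call of Tbx20 were lost without the libraries with an S number. H3K27me3 was called more often in cortex at Tbx10 and Sox13 (15.1%) and more often in gastrocnemius at Sox8 and Sox30 (18.7%), and these 4 genes were also called without the libraries with an S number. The reads did not give Sox13 a stable direction in H3K27me3: the edgeR FDR was 0.459, it was 0.0597 with the mouse as a block (log2 difference 5.52, higher in cortex), and with uncalled windows at the lowest read density the log2 difference turned to -0.57 (FDR 0.0927, higher in gastrocnemius).

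The SoxB1 genes Sox1 and Sox2, which keep neural progenitors undifferentiated, carried active marks in cortex. Sox2 H3K4me3 lay between 13.3 and 19.4 CPM in cortex with a median of 16.9, and between 5.38 and 6.77 CPM in gastrocnemius with a median of 6.07. All cortex libraries were above all gastrocnemius libraries, with a log2 difference of 1.45 ± 0.10 (SE) and an edgeR FDR of 4.34e-12. Sox2 H3K27ac was called in 9 of 9 cortex libraries, between 6.62 and 8.88 CPM with a median of 8.12, and in 0 of 10 gastrocnemius libraries (edgeR FDR 2.39e-10). Sox2 H3K27me3 was called in all 19 libraries, with medians of 9.79 CPM in cortex and 10.1 in gastrocnemius and overlapping values (log2 difference -0.17 ± 0.17, FDR 0.460).

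Sox1 H3K4me3 lay between 9.11 and 21.0 CPM in cortex with a median of 11.6. In gastrocnemius 4 of 10 libraries had a peak and the highest reached 4.80 CPM, so that all cortex libraries were higher (log2 difference 3.01 ± 0.90, FDR 0.00688). The Sox1 difference was 2.06 with uncalled windows at the lowest read density. Sox1 H3K27ac was called in 9 cortex libraries at 4.29 to 10.04 CPM with a median of 6.22, and in 0 gastrocnemius libraries (FDR 6.84e-09). Sox1 H3K27me3 was present in all 19 libraries, with medians of 11.6 and 10.8 CPM and an FDR of 0.704. At both SoxB1 genes H3K27me3 was called in the tissue with H3K27ac as well as in the tissue without it.

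The SoxB2 genes Sox14 and Sox21 counteract SoxB1 proteins. Sox21 H3K27ac ranged from 3.20 to 8.99 CPM in cortex with a median of 4.66, and from 1.57 to 2.97 CPM in gastrocnemius with a median of 2.38, without overlap (log2 difference 0.99 ± 0.26, FDR 0.00259). Its H3K4me3 (medians 13.5 and 11.9 CPM) and H3K27me3 (12.7 and 13.2 CPM) overlapped and were not called. Sox14 H3K27me3 was found in all 19 libraries, with a median of 12.5 CPM in cortex and 9.87 in gastrocnemius (log2 difference 0.38 ± 0.13, FDR 0.0286), and the FDR was 0.142 without the libraries with an S number.

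The SoxC genes Sox4, Sox11 and Sox12 act in immature neurons and other progenitors, and all were higher in cortex in H3K27ac, while Sox4 did not share the H3K4me3 difference of the other two. Sox11 H3K4me3 ranged from 35.4 to 41.1 CPM in cortex with a median of 37.5, and from 7.999 to 13.8 CPM in gastrocnemius with a median of 9.67. The tissues did not overlap, and the log2 difference was 1.90 ± 0.11 (edgeR FDR 8.95e-14). Sox11 H3K27ac was called in 9 cortex libraries at 7.59 to 12.8 CPM with a median of 11.03, and in 0 of 10 gastrocnemius libraries (FDR 3.03e-12). Its H3K27me3 was called in 8 cortex and 10 gastrocnemius libraries, with medians of 6.00 and 9.15 CPM, and the log2 difference of -0.80 ± 0.38 had an FDR of 0.103, and with uncalled windows at the lowest read density it was -0.65 with an FDR of 0.0179.

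Sox12 H3K4me3 ranged from 38.6 to 49.0 CPM in cortex with a median of 43.4, and from 13.3 to 25.1 CPM in gastrocnemius with a median of 19.6 (log2 difference 1.15 ± 0.10, FDR 2.23e-10). Sox12 H3K27ac ranged from 11.4 to 14.1 CPM in cortex with a median of 11.9, and from 3.37 to 6.80 CPM in gastrocnemius with a median of 4.76 (log2 difference 1.28 ± 0.11, FDR 2.96e-09). Neither mark overlapped between the tissues. H3K27me3 at Sox12 was called in 0 cortex and 3 gastrocnemius libraries, and its FDR of 0.0201 became 0.241 with the mouse as a replicate block and 0.0628 without the libraries with an S number. Sox4 had no H3K27me3 peak, and its H3K4me3 medians were 39.6 CPM in cortex and 40.1 in gastrocnemius. Sox4 H3K27ac was higher in cortex, with medians of 10.2 and 7.26 CPM and overlapping values (log2 difference 0.51 ± 0.10, FDR 0.000193).

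The SoxE genes Sox8 and Sox9 act in glia, and Sox9 also in cartilage. Sox8 was higher in cortex for both active marks and higher in gastrocnemius for H3K27me3. Its H3K4me3 ranged from 34.8 to 45.6 CPM in cortex with a median of 40.4, and from 16.4 to 26.4 CPM in gastrocnemius with a median of 20.6 (log2 difference 0.97 ± 0.09, FDR 1.78e-09). Sox8 H3K27ac ranged from 9.12 to 17.4 CPM in cortex with a median of 11.2, and from 4.04 to 7.17 CPM in gastrocnemius with a median of 5.50 (log2 difference 1.15 ± 0.13, FDR 9.85e-08). The tissues did not overlap in either mark. H3K27me3 at Sox8 was called in 1 of 9 cortex libraries, at 4.39 CPM, and in 10 of 10 gastrocnemius libraries at 4.21 to 13.5 CPM with a median of 9.23. Its Fisher FDR was 0.00102, and the edgeR FDR was 0.0379 without the libraries with an S number. Sox9 H3K4me3 medians were 24.3 CPM in cortex and 24.1 in gastrocnemius, and its H3K27ac was higher in cortex (8.91 and 5.49 CPM, log2 difference 0.57 ± 0.12, FDR 0.000539). The oligodendrocyte markers moved with Sox8: all 5 were higher in cortex in both active marks, with summed levels of 103 to 133 CPM in cortex and 28.6 to 46.4 CPM in gastrocnemius in H3K4me3, and of 41.6 to 60.04 and 4.42 to 14.8 CPM in H3K27ac. Their part in the SoxE values was not tested.

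The SoxF genes Sox7, Sox17 and Sox18 are regulators of endothelial identity, and all were higher in gastrocnemius in H3K4me3 and H3K27ac. Sox17 H3K4me3 ranged from 10.1 to 13.4 CPM in cortex with a median of 11.1, and from 20.3 to 31.3 CPM in gastrocnemius with a median of 25.5 (log2 difference -1.18 ± 0.09, FDR 1.66e-11). Sox17 H3K27ac was called in 8 of 9 cortex libraries with a highest value of 4.59 CPM, and in all gastrocnemius libraries from 7.72 to 11.4 CPM with a median of 9.77 (log2 difference -1.29 ± 0.20, FDR 1.22e-05). The tissues did not overlap in either mark. Sox17 H3K27me3 was higher in cortex, with medians of 15.4 and 9.08 CPM and overlapping values (log2 difference 0.69 ± 0.15, FDR 0.000950; 0.0287 without the libraries with an S number).

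Sox7 H3K4me3 ranged from 10.5 to 16.4 CPM in cortex with a median of 13.0, and from 21.8 to 33.5 CPM in gastrocnemius with a median of 26.99, without overlap (log2 difference -0.98 ± 0.10, FDR 6.25e-09). Sox7 H3K27ac was higher in gastrocnemius with overlapping values (medians 4.90 and 8.69 CPM, log2 difference -0.70 ± 0.13, FDR 9.52e-05). Sox7 H3K27me3 was higher in cortex (log2 difference 0.89 ± 0.24, FDR 0.00607), and the FDR was 0.119 without the libraries with an S number. Sox18 overlapped in H3K4me3 (medians 15.6 and 23.6 CPM, FDR 2.87e-05) and in H3K27ac (8.71 and 11.1 CPM, FDR 0.0296, and 0.115 with the mouse block). The endothelial markers moved with these genes: all 4 were higher in gastrocnemius in H3K4me3, with a summed level of 46.8 to 57.4 CPM in cortex and 61.1 to 107 CPM in gastrocnemius, and 3 of 4 in H3K27ac. Their part in the SoxF values was not tested.

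The SoxD genes Sox5, Sox6 and Sox13 lack a transactivation domain of their own and act with other factors. Sox6, which represses slow fibre genes in muscle and acts in interneurons of the cortex, was higher in gastrocnemius in both active marks and higher in cortex in H3K27me3. Over the windows of its 6 TSSs, H3K4me3 ranged from 29.7 to 40.4 CPM in cortex with a median of 32.8, and from 54.5 to 73.3 CPM in gastrocnemius with a median of 58.1 (log2 difference -0.86 ± 0.08, FDR 3.99e-09). Sox6 H3K27ac ranged from 10.5 to 19.8 CPM in cortex with a median of 15.4, and from 26.1 to 53.9 CPM in gastrocnemius with a median of 32.6 (log2 difference -1.15 ± 0.13, FDR 1.36e-07). Sox6 H3K27me3 ranged from 29.0 to 41.2 CPM in cortex with a median of 37.7, and from 0 to 13.4 CPM in gastrocnemius with a median of 8.36. No overlap of the tissues was found in any of the 3 marks, and the H3K27me3 difference of 2.07 ± 0.34 (FDR 4.79e-05) was 1.83 without the libraries with an S number (FDR 5.68e-06).

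The TSSs of Sox6 differed from each other. The H3K4me3 reads lay mainly at the upstream TSSs, chr7:116038744 and chr7:116031047 on the minus strand, in both tissues, and the second of them had a median of 19.5 CPM in cortex and 36.7 in gastrocnemius. At the internal TSS chr7:115846140, H3K27ac was called in gastrocnemius at 2.07 to 3.66 CPM and in no cortex library. At the internal TSS chr7:115824710, H3K27me3 had a median of 5.71 CPM in cortex and was called in no gastrocnemius library, and H3K4me3 was called in 1 of 9 cortex libraries at 2.86 CPM.

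Sox5 showed the reverse of Sox6 in the active marks. Its H3K4me3 ranged from 13.1 to 20.5 CPM in cortex with a median of 16.4, and from 0 to 8.58 CPM in gastrocnemius with a median of 4.87 (log2 difference 1.77 ± 0.35, FDR 0.000227). Sox5 H3K27ac was called in 9 of 9 cortex libraries at 5.48 to 10.5 CPM with a median of 9.25, and in 1 of 10 gastrocnemius libraries at 2.81 CPM (FDR 0.000422). The tissues did not overlap. The H3K4me3 reads lay at the upstream TSS chr6:144209568, and no library had H3K4me3 at chr6:143947106. Sox5 H3K27me3 was called in 7 cortex and 9 gastrocnemius libraries and overlapped (FDR 0.928). Sox13 was higher in gastrocnemius in H3K27ac (medians 5.80 and 9.24 CPM, FDR 0.0169). Its H3K4me3 FDR of 0.0869 became 0.173 with the mouse block and exceeded 0.1 when any of 9 single libraries was left out, reaching 0.195.

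The remaining SOX genes Sox15, a gene of satellite cells and muscle repair, and Sox30, a regulator of spermatid development, were marked differently. Sox15 had H3K27ac in all 19 libraries with medians of 6.41 and 6.92 CPM, and H3K4me3 in 5 cortex and 7 gastrocnemius libraries, with no call. Sox30 H3K27me3 was called in 0 of 9 cortex libraries and in 10 of 10 gastrocnemius libraries, at 4.40 to 12.8 CPM with a median of 7.96 (edgeR FDR 1.35e-06, 0.000129 without the libraries with an S number, Fisher FDR 0.000169). Sox30 carried H3K4me3 in all libraries of both tissues, with medians of 9.23 and 7.72 CPM. Its H3K4me3 call of higher in cortex (FDR 0.0590) had an FDR of 0.150 with the mouse block and 0.993 with TMM factors.

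Of the Tbx2 subfamily, which patterns limb, heart and chest wall, Tbx2, Tbx3 and Tbx4 had the active marks higher in gastrocnemius and H3K27me3 higher in cortex. Tbx2 H3K4me3 ranged from 4.33 to 7.48 CPM in cortex with a median of 5.91, and from 12.5 to 19.01 CPM in gastrocnemius with a median of 15.9 (log2 difference -1.42 ± 0.11, FDR 4.06e-11). Tbx2 H3K27ac was called in 4 of 9 cortex libraries, at most 2.28 CPM, and in all gastrocnemius libraries from 4.06 to 6.83 CPM with a median of 5.81 (log2 difference -2.81 ± 0.78, FDR 0.00458; -1.50 with uncalled windows at the lowest read density). Neither mark showed overlap. Tbx2 H3K27me3 overlapped, with medians of 16.4 CPM in cortex and 7.39 in gastrocnemius (FDR 0.00207; 0.0372 without the libraries with an S number).

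Tbx3 H3K4me3 ranged from 11.7 to 20.2 CPM in cortex with a median of 15.9, and from 25.4 to 54.2 CPM in gastrocnemius with a median of 37.7, without overlap (log2 difference -1.30 ± 0.13, FDR 3.11e-09). Tbx3 H3K27ac was higher in gastrocnemius (medians 5.53 and 12.1 CPM, FDR 6.02e-06) and H3K27me3 higher in cortex (16.6 and 6.59 CPM, FDR 0.00822; 0.0359 without the libraries with an S number), both with overlapping values.

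Tbx4, known for its role in the hindlimb, had H3K4me3 in 6 of 9 cortex libraries, at most 2.85 CPM, and in all gastrocnemius libraries from 6.23 to 16.3 CPM with a median of 10.97 (log2 difference -3.06 ± 0.58, FDR 9.95e-05; -1.80 with uncalled windows at the lowest read density). Tbx4 H3K27ac was called in 3 cortex libraries, at most 2.03 CPM, and in 10 gastrocnemius libraries from 2.76 to 5.19 CPM with a median of 3.51 (log2 difference -2.78 ± 0.97, FDR 0.0193). With uncalled windows given the lowest read density of the library in place of 0, the Tbx4 H3K27ac difference was -0.09 and was not called (FDR 0.744). Neither mark overlapped between the tissues. These reads lay mainly at the downstream TSS chr11:85896765, since at chr11:85886367 no library had H3K27ac and no cortex library had H3K4me3. Tbx4 H3K27me3 was called in all 19 libraries, with medians of 31.5 CPM in cortex and 20.7 in gastrocnemius (log2 difference 0.53 ± 0.13, FDR 0.00309; 0.0363 without the libraries with an S number). Tbx5, the forelimb and heart member of the group, carried H3K27me3 in all 19 libraries (medians 14.9 and 10.1 CPM, FDR 0.0314; 0.314 without the libraries with an S number) and neither of the other marks.

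In the Tbx1 subfamily, Tbx15, a regulator of fast glycolytic muscle fibres, was higher in gastrocnemius in the active marks and higher in cortex in H3K27me3. Its H3K4me3 ranged from 5.05 to 8.27 CPM in cortex with a median of 6.28, and from 16.9 to 38.7 CPM in gastrocnemius with a median of 30.02 (log2 difference -2.18 ± 0.13, FDR 4.62e-13). Tbx15 H3K27ac was called in 6 of 9 cortex libraries, at most 3.72 CPM, and in all gastrocnemius libraries from 5.46 to 13.4 CPM with a median of 8.05 (log2 difference -2.06 ± 0.53, FDR 0.00288). Tbx15 H3K27me3 ranged from 12.8 to 19.03 CPM in cortex with a median of 15.1, and from 0 to 10.7 CPM in gastrocnemius with a median of 4.92, where 6 of 10 libraries had a peak. None of the 3 marks overlapped between the tissues. The H3K27me3 difference of 1.91 ± 0.56 (FDR 0.00989) had an FDR of 0.0560 without the libraries with an S number.

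Tbx18, a gene of mural cells and the embryonic heart, was higher in gastrocnemius in H3K4me3 without overlap (medians 7.69 and 15.5 CPM, log2 difference -0.94 ± 0.11, FDR 8.24e-08). Its H3K27ac FDR of 0.0738 and H3K27me3 FDR of 0.0901 became 0.141 and 0.120 with the mouse block, and 0.182 and 0.565 without the libraries with an S number. Tbx18 H3K27ac was no longer called without gastrocnemius replicate 9 or 10, with an FDR of up to 0.106, and its H3K27me3 call was lost in 13 of the fits that left out 1 library, with an FDR of up to 0.155. Tbx1 H3K27me3 was higher in cortex with overlap (medians 43.7 and 31.2 CPM over 3 TSSs, FDR 0.00205; 0.0330 without the libraries with an S number). The Tbx1 H3K4me3 FDR of 0.0543, higher in gastrocnemius, reached 0.109 without 1 library and was above 0.1 without cortex replicate 4 or 7 or gastrocnemius replicate 1.

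Tbx10 had no H3K4me3 peak in any library. H3K27ac at Tbx10 was called in 2 of 9 cortex and 10 of 10 gastrocnemius libraries (medians 0 and 6.49 CPM, FDR 0.0106), and H3K27me3 in 9 cortex and 3 gastrocnemius libraries (medians 7.68 and 0 CPM, FDR 0.0468, and 0.101 both without the libraries with an S number and with TMM factors). Tbx20, a heart gene, had H3K4me3 in 5 of 9 cortex libraries, at most 4.05 CPM, and in none of gastrocnemius. Its Fisher FDR was 0.0223, and the edgeR FDR of 0.00216 became 0.878 with uncalled windows at the lowest read density. Tbx20 H3K27me3 was present in all 19 libraries, with medians of 16.1 and 10.8 CPM (FDR 0.0222; 0.219 without the libraries with an S number).

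Eomes and Tbx21 of the Tbr1 subfamily act in cytotoxic lymphocytes, and Eomes also in cortical progenitors of the embryo. Eomes H3K27ac was called in 0 of 9 cortex libraries and in 10 of 10 gastrocnemius libraries, at 0.832 to 3.98 CPM with a median of 3.06 (edgeR FDR 1.77e-06, Fisher FDR 5.65e-05). With uncalled windows at the lowest read density the Eomes H3K27ac difference was -0.41 with an FDR of 0.0688. Set this way, the H3K27ac differences of Sox1, Sox2 and Sox11, also uncalled in a whole tissue, were 1.74, 1.97 and 2.41, and that of Sox30 H3K27me3 was -1.11. Eomes H3K4me3 ranged from 5.88 to 8.38 CPM in cortex and from 8.52 to 17.3 CPM in gastrocnemius, without overlap (log2 difference -0.92 ± 0.13, FDR 1.04e-06). Tbx21 H3K27ac was called in 1 cortex and 8 gastrocnemius libraries (edgeR FDR 0.0450; 0.117 without the libraries with an S number). Its H3K4me3 medians were 5.41 and 7.44 CPM (FDR 0.0171, and 0.160 with the mouse block). Both genes carried H3K27me3 in all 19 libraries. Of 5 lymphocyte markers, Cd3e, Cd4 and Cd8a had no H3K4me3 and no H3K27ac peak in any library. Ptprc, the leukocyte gene CD45 that microglia also express, was higher in cortex in H3K4me3 (medians 3.32 and 0 CPM, FDR 0.000141) and had no H3K27ac peak. Nkg7 had no H3K4me3 peak. The summed level of the 5 was 0 to 4.08 CPM in cortex and 0 in gastrocnemius in H3K4me3, and 0 in cortex and at most 4.65 CPM in gastrocnemius in H3K27ac. Their part in the Eomes and Tbx21 values was not tested.

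Tbx6, which specifies paraxial mesoderm, had H3K4me3 medians of 8.53 CPM in cortex and 24.7 in gastrocnemius (log2 difference -0.99 ± 0.22, FDR 0.000601). Cortex replicate 8 reached 28.7 CPM, above all gastrocnemius libraries, so the tissues overlapped. Replicate 9 was the next highest in cortex at 17.3 CPM, and both carry an S number. The Tbx6 H3K4me3 difference was -1.40 without the libraries with an S number. In those libraries alone it was -0.15 and not called (edgeR FDR 0.683). Its H3K27ac medians of 12.2 and 11.3 CPM were not called. Tbx19, the pituitary activator of Pomc, carried H3K27me3 in 8 cortex and 10 gastrocnemius libraries with no call (medians 8.01 and 7.00 CPM, FDR 0.982).

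The peaks over these TSSs also differed in length between the tissues. No test was made of the lengths, which may depend on depth and on how the caller joins windows. H3K27me3 over the Tbx15 TSS spanned a median of 47.8 kb in cortex (41.2 to 52.4) and 4.30 kb in gastrocnemius (0 to 37.4), and these ranges did not overlap. Over Tbx3 the medians were 62.6 and 12.4 kb, with 38.4 to 100.4 kb in cortex and 4.40 to 68 kb in gastrocnemius. At Sox2 the order was the other way, with a median of 12 kb in cortex (2.6 to 36.8) and 41 kb in gastrocnemius (15 to 58.8), and the ranges overlapped. The Sox2 H3K4me3 peak had a median of 20.2 kb in cortex and 4.20 kb in gastrocnemius. The H3K27ac peak over Sox2 had a median of 35 kb in cortex (5.40 to 41.6).

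**Figure D5:**
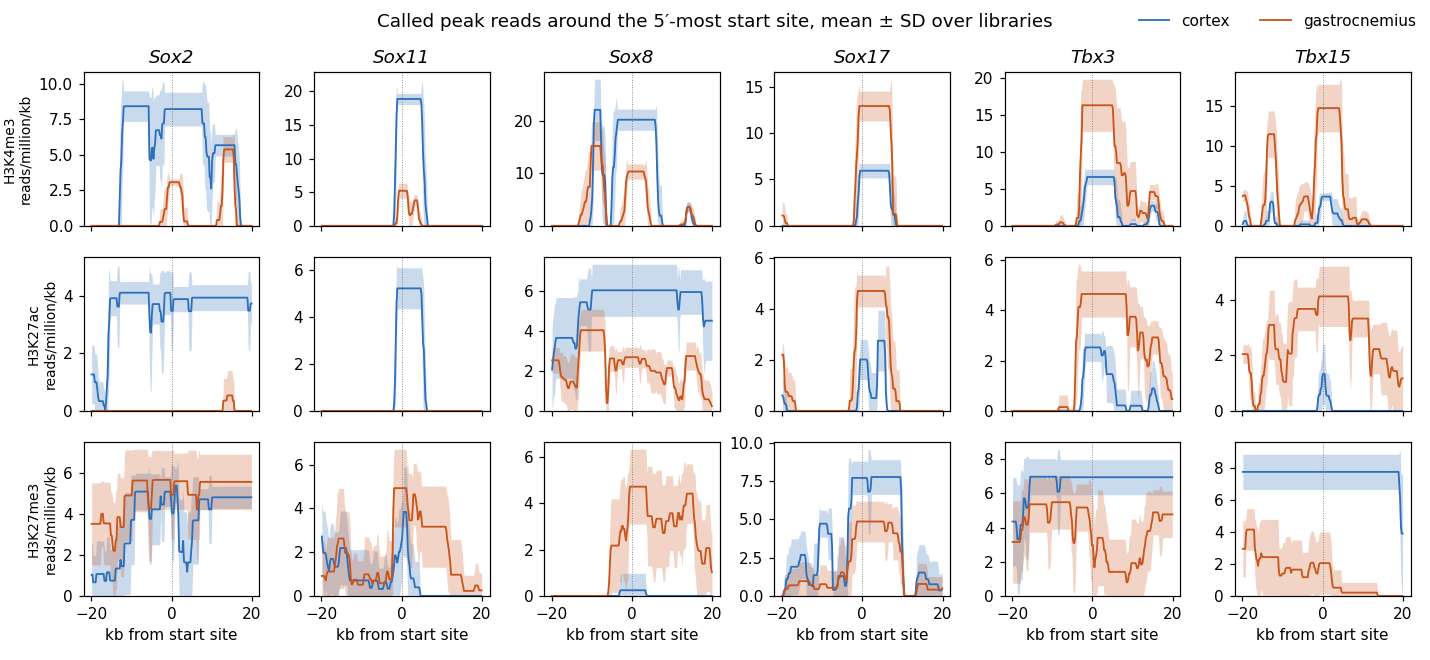
CPM of called peaks per kb (y axis) against the distance from the 5′-most TSS in kb along the gene's strand (x axis), for 6 genes (columns) and 3 marks (rows); lines are means and shading is the SD over 9 cortex (blue) or 10 gastrocnemius (orange) libraries. Reads were spread evenly over each peak, so the profiles show called domains and not summits, and Tbx15 shows a wide H3K27me3 domain in cortex where gastrocnemius has H3K4me3 and H3K27ac.

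H3K27ac peaks more than 1 kb from every curated RefSeq TSS were summed as a description. The stretch ran from 50 kb before a gene's first TSS to 50 kb beyond its last. At Sox5 and Sox6, whose TSSs lie far apart, it took in all that lies between them. Their sums thus cover a longer stretch than those of the other genes named here. They may hold peaks over 50 kb from any TSS. Tbx15 had none in cortex and a median of 110 CPM in gastrocnemius (6.73 to 135). Sox6 had a median of 0 CPM in cortex, at most 10.96, and 175 CPM in gastrocnemius (99.8 to 294). Sox5 had 89.4 CPM in cortex (34.2 to 139) and 3.97 CPM in gastrocnemius (0 to 9.94), without overlap. Sox2 had 17.9 CPM in cortex (7.06 to 78.4) and at most 4.71 CPM in gastrocnemius. Sox8, which was marked by H3K27ac in both tissues, had 177 CPM in cortex (115 to 305) and 66.0 in gastrocnemius (29.4 to 84.8). Other genes had more distal H3K27ac in cortex without more at the promoter. Tbx6 had 52.3 CPM in cortex (28.6 to 70.9) and 6.11 in gastrocnemius (3.83 to 12.6), and Tbx19, with no promoter H3K27ac, had 43.8 CPM in cortex (30.4 to 54.1) and 6.92 in gastrocnemius (3.07 to 14.2). For Tbx2, Tbx4 and Tbx10, whose promoter H3K27ac was higher in gastrocnemius, the distal medians were 36.5, 23.6 and 39.8 CPM in cortex and 28.6, 8.34 and 21.2 CPM in gastrocnemius, with overlapping values. The genes named here were chosen after their values were seen. Such peaks may belong to neighbouring genes and were not assigned to a target.

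Known targets of these factors were taken from a list of 30 genes, 29 of them autosomal. In H3K4me3, 6 of 20 tested were higher in cortex (59.6% of all genes tested) and 8 in gastrocnemius (16.1%). In H3K27ac they were 10 and 7 of 23 (49.8% and 13.2%), and in H3K27me3 6 and 5 of 26 (19.5% and 25.3%). The 4 examples have the largest fitted H3K4me3 difference, a rank that depends on the prior count because each had a median of 0 CPM in 1 tissue. The myelin gene Mog, a target of SoxE factors, and the aggrecan gene Acan, a target of Sox5, Sox6 and Sox9 in cartilage, had medians of 5.66 and 10.7 CPM in cortex and 0 CPM in gastrocnemius (FDR 2.46e-08 and 3.12e-11). The slow fibre genes Tnnt1 and Tnni1, targets of Sox6, had H3K4me3 medians of 4.50 and 4.13 CPM in gastrocnemius and 0 CPM in cortex (FDR 5.66e-06 and 1.00e-05).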

How the data were processed

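H3K4me3, H3K27ac and H3K27me3 ChIP-seq peaks of PSAPP cortex and gastrocnemius were used. For the mm10 build the authors used BWA for alignment, SAMtools for filtering and epic2 for calling peaks library by library, with no input control in the sources used here. The deposited count of a peak is the whole number of reads in it, not normalized, and the deposited score is the caller's rank of the peak. The score was used here only to drop low-scoring peaks. The count of each peak was shared evenly over its length and summed within 1 kb of the curated RefSeq TSSs of each gene.

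Reads were tested with edgeR 4.0.16 in R 4.3.3 (quasi-likelihood, library size the reads in autosomal peaks, genes with a peak in at least 3 of 19 libraries), and peak calls with Fisher's exact test (SciPy 1.17.1), both with Benjamini-Hochberg adjustment over all genes tested and an FDR under 0.1. The SE of a log2 difference is its size divided by the square root of the F statistic. Where all libraries of a tissue lacked a peak no log2 difference is given, because the fitted value depends on the prior count. Alternatives used DESeq2 1.42.0, limma 3.58.1 on log2(CPM + 1), TMM factors, other windows and filters, uncalled windows given each library’s lowest read density in place of 0, and each library left out in turn. Scripts were tested on simulated data. The reads behind a value set its precision.

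The members and lists were chosen with earlier results of these data known. For each mark and direction, the 6 genes with the largest log2 difference among those called without overlap are described with lowest, median and highest values, and of the other genes counts, ranges and calls are given. Groups follow the labels, and libraries of a tissue are separate mice. Mouse codes in the deposited names tie 9 cortex libraries to gastrocnemius libraries of the same mouse. The correlation of their deviations from the tissue means was at most 0.062 in any pair, and the fit with the mouse as a block is given where it changes a call.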

Additional observations from a re-analysis of the deposited data

Results flagged for a closer look

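In 8 of the 122 combinations of gene, mark and tissue in which every library had a peak, 1 library lay far from the others by Dixon's criterion, and chance flags about 1 in 20. Tbx6 H3K4me3 in cortex replicate 8 was 28.7 CPM (next 17.3), and Tbx6 H3K27ac in cortex replicate 6 was 15.9 CPM (next 13.4). Tbx21 H3K4me3 in cortex replicate 9 was 7.40 CPM (next 5.49). Tbx4 H3K27ac in gastrocnemius replicate 7 was 5.19 CPM (next 3.90), and Sox6 H3K27ac in the same library was 53.9 CPM (next 37.2). Sox6 H3K4me3 in cortex replicate 5 was 40.4 CPM (next 34.3), and Sox21 H3K27ac in the library of the same number was 8.99 CPM (next 5.14). Sox18 H3K27me3 in cortex replicate 6 was 19.9 CPM (next 12.1).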

How the results depend on the processing

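The numbers of the 30 genes called, both families together, stayed within 1.5 times the reported ones with TMM factors, DESeq2, limma, the other filters, the S number as a covariate, each library left out in turn, and the libraries of fewest and most reads left out (the last chosen after seeing the data). By family, the SOX genes higher in gastrocnemius in H3K4me3 were 8 with TMM factors, against 5. With uncalled windows at the lowest read density, the H3K4me3 call of Tbx20, the H3K27ac call of Tbx4 and the H3K27me3 calls of Tbx18 and Sox12 were lost, and Sox30 H3K27ac (FDR 0.00422) and Sox11 and Sox13 H3K27me3 (0.0179 and 0.0927) were gained. With a replicate block by the mouse code in the deposited names the counts higher in cortex and gastrocnemius were 7 and 12 for H3K4me3, 9 and 11 for H3K27ac and 13 and 2 for H3K27me3, and with a block by the number in the titles 7 and 12, 9 and 11, and 11 and 2. Among all genes tested, the block by mouse code called 9513 and 2387 of 16424, 8733 and 2118 of 18039, and 1642 and 1949 of 9104. The block by number called 10031 and 2362, 9138 and 2129, and 1634 and 1896. The block by number changes the mice paired, since numbers above 4 join different mice, and the correlation of deviations was over 0.1 in none of 9 pairs per mark. H3K27me3 genes higher in cortex were 7 without the libraries with an S number, and 5 with only those libraries. The fit on only those libraries, 2 of cortex and 4 of gastrocnemius, was added after seeing the data. It also gave 9 genes for H3K4me3 and 6 for H3K27ac higher in gastrocnemius. Among all genes tested it called 771 of 9104 higher in cortex for H3K27me3. Higher in gastrocnemius were 1272 of 16424 for H3K4me3 and 757 of 18039 for H3K27ac. With all libraries these numbers were 1773, 2645 and 2382. Windows of 2.5 kb and all reads of overlapping peaks each gave 5 H3K27me3 genes higher in gastrocnemius, against 3. Among all genes tested these settings called 2774 of 10268 and 2804 of 9104, against 2305 of 9104. For H3K4me3 peak calls, 1 gene was called more often in cortex with equally many top-scoring peaks or without the S-number libraries, against 2. More often in gastrocnemius were 1 gene for the 5′-most TSS or equally many top-scoring peaks and 2 without the 25% of peaks with the lowest scores or with at least 50% of the windows covered, against 0. The last setting gave 9 H3K27ac genes, against 5. Of the genes called in the read test, the sign turned for Sox30 H3K4me3 with DESeq2 size factors (-0.040), for Sox12 H3K27me3 with uncalled windows at the lowest read density (0.046) and for Tbx1 H3K4me3 in the libraries with an S number alone (0.18), each no longer called. Sox13 H3K27me3, not called in the read test, turned from 1.39 to -0.57 with uncalled windows at the lowest read density. The cause was not tested. Of the single genes called, 937 of 1011 values under the other alternatives and 1111 of 1140 with a library left out kept their direction and call. A window without a called peak may hold reads, and values of H3K27me3 libraries with fewer reads are less precise.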
